A study of Saccharomyces cerevisiae with 7 samples.

Results

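In wild type (WT) budding yeast, most genes with a readthrough index in these data had little nascent signal past their 3' end relative to the signal before it. A smaller group had more. The results below describe 42 such genes, which are neither ribosomal protein nor histone nor ergosterol synthesis genes, and ask whether the sua7-1 mutant had more signal past their 3' ends than WT. They were chosen by their WT values: a mean readthrough index of 0.04 or more over WT replicates 1, 2 and 3. Of 337 genes measured, 61 met this limit, and 19 of them were left out by name, namely the families above and single genes such as GPM1, TEF1 and DED1. The WT level of the 42 genes was therefore fixed by the choice and is given as a description.

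The libraries were made by global run-on sequencing (GRO-seq), in which engaged polymerases extend their transcripts with BrUTP and the labelled RNA is purified and sequenced. There were 3 libraries of sua7-1 cells (replicates 2, 3 and 4), in which TFIIB carries a point mutation, and 4 of WT cells (replicates 1 to 4). Both strains derive from BY4733, a MATα strain that lacks HIS3, TRP1, LEU2, MET15 and URA3, and cultures at 30 °C were taken at an A600 of 0.8 for a run-on of 5 min. The readthrough index (RTI) compares reads in a window 50 to 500 nt past the annotated end of the mRNA with reads in the mirror window before it, as the first number over the second, so an RTI of 1 means equal signal on both sides.

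RNA polymerase II does not stop at the end of an mRNA. The cleavage and polyadenylation factors recognise A- and U-rich elements in the nascent RNA, cut it at the poly(A) site, and the polymerase is then released by an exonuclease that degrades the downstream RNA. TFIIB acts at promoters, where it joins the TATA-binding protein to the polymerase, and has also been found at the 3' ends of genes.

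An RTI was listed for 39, 41 and 42 of the 42 genes in sua7-1 replicates 2, 3 and 4, and for 39, 41, 42 and 6 in WT replicates 1, 2, 3 and 4. WT replicate 4 held only 38 of all 337 genes and had no part in the choice. The files hold ratios without read numbers, so the depth behind each RTI is unknown and no counting interval can be given. Among the 295 other genes, WT replicate 1 had a median RTI of 0.0114, against 0.00259 and 0.00361 in WT replicates 2 and 3. In WT replicate 4 it was 0.0104, over only 32 of these genes. The methods name 3 biological replicates a strain, and which of the 4 WT libraries these are is not stated. The p-values therefore reflect variation from library to library, and part of that may be technical.

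Below, the values of a gene are given in the order of the replicates, sua7-1 replicates 2, 3 and 4 and then WT replicates 1, 2 and 3, unless a replicate is named. The mean WT RTI of the 42 genes ran between 0.0402 and 1.22, with a median of 0.103. The mean sua7-1 RTI ran between 0.0118 and 1.58, with a median of 0.238. YRA1, DSE4 and ADO1 lay just inside the limit, at WT means of 0.0402, 0.0407 and 0.0410, and HAC1, ARC19 and VPH1 lay just outside it, at 0.0397, 0.0385 and 0.0370.

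**Figure D1:**
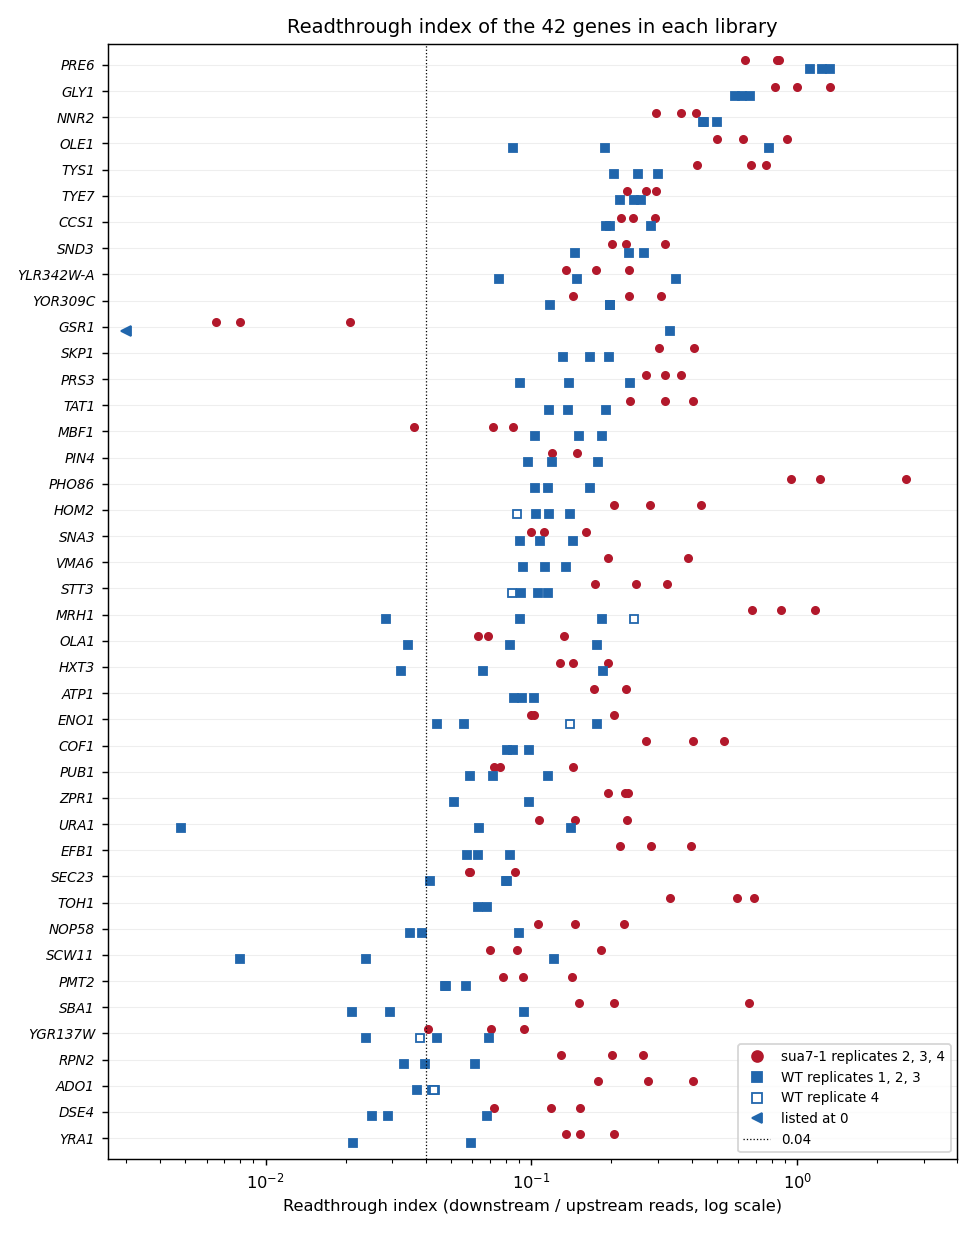
RTI of each of the 42 genes (rows, ordered by mean WT RTI) in every library on a logarithmic axis, with sua7-1 libraries as red circles and WT libraries as blue squares (open for WT replicate 4). In 22 genes all sua7-1 circles lie right of all WT squares, in 3 they lie left of them, and the 0 of GSR1 is drawn at the left edge.

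The WT signal was steady in most of the 42 genes and rested on 1 library in a few. In 29 of them, every WT library with a value among replicates 1 to 3 was at 0.04 or more. In 7 genes (GSR1, NOP58, SCW11, SBA1, RPN2, DSE4 and YRA1) only 1 of these libraries was, and for 5 of the 7 that was WT replicate 1. WT replicate 1 was also the highest of the 3 in 24 genes, WT replicate 2 in 10 and WT replicate 3 in 8. The highest WT value was a median of 1.78 times the lowest over the 41 genes with no 0, and 3 times or more in 9. Among the sua7-1 libraries the same ratio had a median of 1.84 and reached 3 in 2 of the 42 genes.

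The level of the 42 genes stayed above that of the other genes in the libraries that did not choose them. In sua7-1 replicates 2, 3 and 4 their median RTI was 0.173, 0.263 and 0.222, against 0.0285, 0.0706 and 0.0531 for the other genes of the same libraries. In WT replicate 4, the 6 of them with a value had a median of 0.0860, against 0.0104 for 32 other genes. The medians in the WT libraries used for the choice were 0.121, 0.0906 and 0.1000. All 3 sua7-1 medians of the 42 genes thus lay above all 4 WT medians. In the libraries that did not choose them, the median of the 42 genes was 6.08, 3.72 and 4.18 times that of the other genes in sua7-1 replicates 2, 3 and 4, against 8.25 times in WT replicate 4. The difference of these medians was 0.145, 0.192 and 0.169 RTI units in sua7-1, against 0.0756 in WT replicate 4, which has few genes. These are descriptions over genes that share libraries and were not tested.

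**Figure D2:**
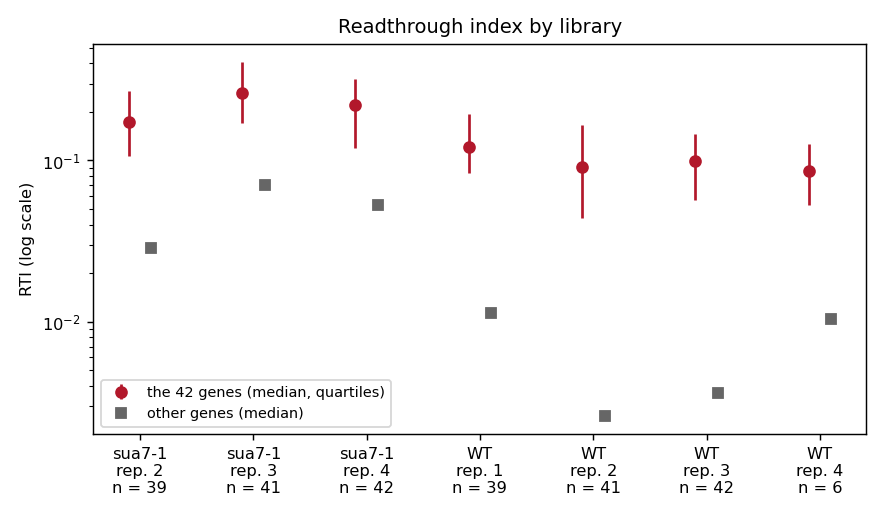
Median RTI per library on a logarithmic axis, for the 42 genes (red circles, bars from the lower to the upper quartile, n below each library) and for the other genes (grey squares). The red medians lie between 0.173 and 0.263 in sua7-1 and between 0.0860 and 0.121 in WT.

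As RTI was listed, sua7-1 had the higher mean in 36 of the 42 genes and the lower mean in 6, with differences of very unequal size. The WT means here are the values that chose the genes, so these counts are a description. The sua7-1 mean was at least 2 times the WT mean in 23 genes and at least 4 times in 9, and it lay between 0.8 and 1.25 times the WT mean in 9. The median ratio of means was 2.10. As a difference, sua7-1 minus WT, the median over the 42 genes was 0.0974 RTI units, against 0.0382 over the other genes. PHO86 gained most, by 1.45 RTI units, followed by MRH1 with 0.80, TOH1 with 0.47 and GLY1 with 0.43. PRE6 lost most, with a difference of -0.45. The order of the genes in WT was kept only in part in sua7-1: Spearman's rho between the strain means was 0.42 over the 42 genes and 0.80 over the other genes, over points that share the same 7 libraries, the 42 genes also spanning a range cut at 0.04.

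**Figure D3:**
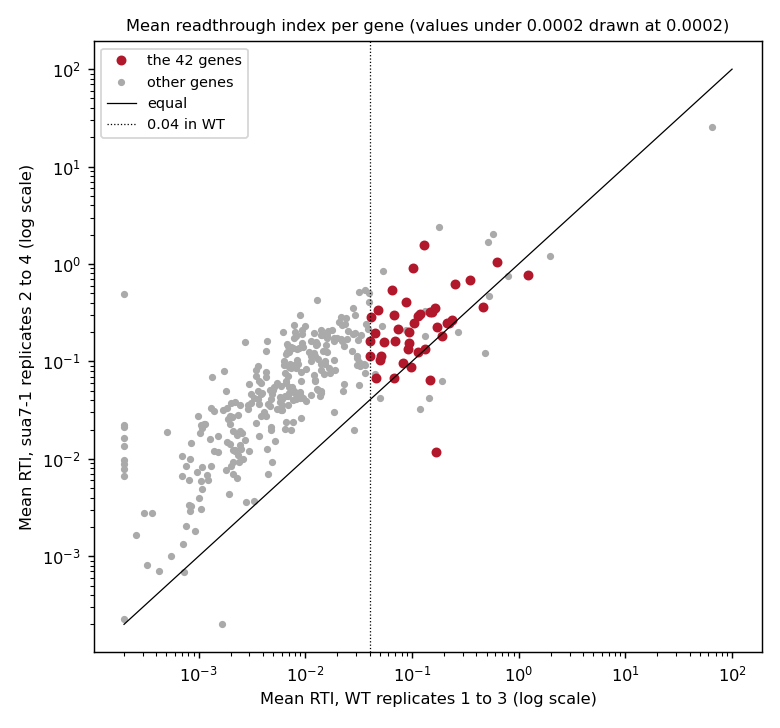
Mean RTI of each gene in sua7-1 replicates 2 to 4 (vertical) against WT replicates 1 to 3 (horizontal), both axes logarithmic, with the 42 genes in red and the other genes in grey. The dotted line is the limit of 0.04, and 36 of the 42 red points lie above the solid line of equal values.

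The strains were fully apart in 25 of the 42 genes, with sua7-1 above WT in 22 (52.4%) and below it in 3, and overlapped in 17. Over all 337 genes the shares were 78.3% above and 2.67% below. With limma on log2(RTI + 0.002), calls required an adjusted p under 0.05 (Benjamini-Hochberg, over all genes) together with a log2 fold change past 1 in either direction. By this rule 15 of the 42 genes were higher in sua7-1 (35.7%), where 75.1% of all genes were called higher. None of the 42 was called lower, where 0.890% of all genes were; 1 of them, MBF1, was lower at an unadjusted p under 0.05. The median log2 fold change was 1.10 for the 42 genes and 2.44 for all genes. Because WT replicates 1 to 3 both chose the genes and enter this comparison, a high chance value in WT lowers the fold change, and nothing is read from the distance to the shares over all genes. The calls also rest on comparing RTI as listed. With each library divided by its own median RTI, which takes the all-gene median log2 fold change to -0.20, 0 of the 42 genes were called higher and 26 lower, with a median of -2.24. The shares of all genes called under this scaling are not given, so these counts are not read against the other genes.

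A comparison free of that choice sets sua7-1 against a WT library that had no part in choosing the genes. The rule was applied again without WT replicate 1, 2 or 3 in turn, and the genes so chosen were compared in sua7-1 with the library left out, in a limma fit over all genes in which the lone library is assumed to vary like the others. The 3 comparisons share the sua7-1 libraries. A gene near the limit may be chosen only while its highest WT library is kept, and is then compared only with its lower ones. Without WT replicate 1, 35 genes were chosen and 32 had a value in it. The median RTI of these was 0.257 in sua7-1 and 0.172 in WT replicate 1, 19 of the 32 had all 3 sua7-1 libraries above it, and 6 were called higher, where 45.5% of all genes were. Without WT replicate 2, 51 of 52 chosen genes had a value in it. Their medians were 0.200 in sua7-1 and 0.0588 in WT replicate 2, and 43 had all sua7-1 libraries above it. In that comparison 26 were called higher, against a background of 73.1%. Without WT replicate 3, all 47 chosen genes had a value in it, with medians of 0.244 in sua7-1 and 0.0855 in WT replicate 3. Of these, 38 had every sua7-1 library above it and 15 were called higher, where 64.9% of all genes were.

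No chosen gene was called lower against any of the WT libraries left out. The calls against WT replicates 1, 2 and 3 fell to 0, 1 and 0 when libraries were scaled to their median RTI, and those against WT replicate 1 to 2 with a pseudocount of 0.0005. The share of chosen genes with all sua7-1 libraries above the WT library left out was 59.4%, 84.3% and 80.9% for WT replicates 1, 2 and 3, and over all genes it was 79.4%, 88.9% and 89.0%. Fold changes stayed under those of all genes, with medians on the log2 scale of 0.71, 1.78 and 1.24 for the chosen genes against 1.53, 2.93 and 2.69 for all genes. Differences were larger: the chosen genes added a median of 0.0925, 0.110 and 0.118 RTI units over the WT library left out, and the other genes 0.0315, 0.0410 and 0.0401. So in each of the 3 comparisons the genes with a high WT index gained more RTI units than the other genes. Their median fold change was lower than that of all genes, the chosen ones included. This is a description with no test over genes.

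WT replicate 4 had 6 of the 42 genes, none chosen by it. STT3, HOM2, MRH1, ENO1, ADO1 and YGR137W read 0.0842, 0.0879, 0.243, 0.140, 0.0430 and 0.0380 in that library. All 3 sua7-1 libraries lay above it in 5 of the 6, ENO1 being the exception. ADO1 alone was called higher against it, at a log2 fold change of 2.60 ± 0.78 (SE) and a limma adjusted p of 0.0180, where 63.2% of the 38 genes of that library were called.

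**Figure D4:**
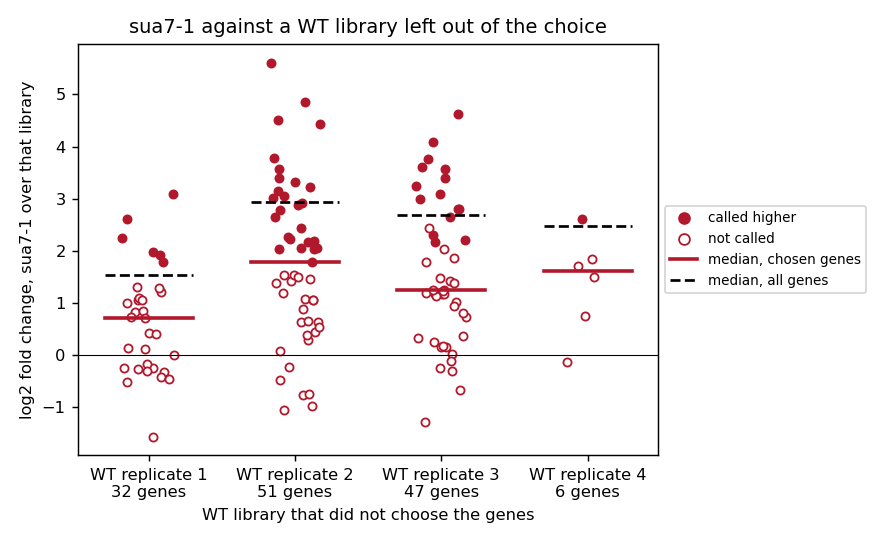
Log2 fold change of sua7-1 over a single WT library for genes chosen without that library, with filled circles for genes called higher. Red lines are the medians of the chosen genes (0.71, 1.78, 1.24 and 1.60 from left to right) and dashed lines those of all genes (1.53, 2.93, 2.69 and 2.46).

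By role, the 42 genes spread over many parts of the cell's metabolism and upkeep. The grouping was made with the values known and serves only as an order of description. Of 9 metabolic enzymes 2 were called higher, of 9 genes of translation, RNA and transcription 5, of 5 genes of protein folding and degradation 2, of 13 genes of secretion, membranes and the cell wall 5, and of 6 others 1. Each of these shares lies under the 75.1% of all genes called higher, and the choice on WT values bears on all of them. Of 16 pathway lists, the 42 genes (12.5% of all genes) made up 3 of 11 measured nucleotide synthesis genes (PRS3, URA1 and ADO1) and 3 of 12 of vesicle traffic and secretion (STT3, SEC23 and PMT2). They were 2 of 11 of protein degradation (PRE6 and RPN2), 2 of 11 of transporters (TAT1 and HXT3), 2 of 16 of amino acid synthesis (GLY1 and HOM2) and 2 of 19 of translation factors and tRNA synthetases (TYS1 and EFB1). The other lists held 1 or none of them. Of the measured genes of the nucleotide, vesicle and degradation lists, 8 of 11, 8 of 12 and 10 of 11 were called higher in sua7-1, beside 75.1% of all genes, and none lower. Of 26 termination factor genes listed, 1 (GLC7) was measured, and it was not among the 42.

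Among the metabolic enzymes, GLY1 had the largest difference in RTI units and ADO1 the largest fold change. GLY1 encodes threonine aldolase, an enzyme of glycine synthesis, and was not called. GLY1 had an RTI of 0.994, 1.32 and 0.826 in sua7-1, against 0.581, 0.665 and 0.618 in WT. The strains did not overlap, although both were high, and the log2 fold change was 0.73 ± 0.48 (SE). OLE1, the fatty acid desaturase of yeast, had 0.499, 0.911 and 0.622 in sua7-1, against 0.785, 0.0850 and 0.189 in WT. Its WT libraries spanned 0.085 to 0.785, and the highest of them lay within the sua7-1 range. HOM2, the aspartate semialdehyde dehydrogenase of threonine and methionine synthesis, had 0.205, 0.433 and 0.279 in sua7-1, against 0.117, 0.140 and 0.104 in WT. PRS3, a subunit of the enzyme that makes the ribose phosphate donor of nucleotide synthesis, had 0.270, 0.366 and 0.319 in sua7-1, against 0.235, 0.0906 and 0.139 in WT. The strains were apart in both, by 1.38 ± 0.46 (SE) on the log2 scale in HOM2 and 1.13 ± 0.52 (SE) in PRS3. HOM2 was called in the fit whose WT values also chose the genes, and against none of the WT libraries left out of the choice.

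ADO1 encodes adenosine kinase, which returns adenosine to the nucleotide pool. It read 0.177, 0.405 and 0.275 in sua7-1, against 0.0424, 0.0432 and 0.0372 in WT and 0.0430 in WT replicate 4. All 4 WT libraries lay within 0.0372 to 0.0432, far under the lowest sua7-1 library. Against WT replicates 1 and 3, each left out of the choice, the log2 fold changes were 2.62 ± 0.72 and 2.80 ± 0.77 (SE), with limma adjusted p of 0.00402 and 0.0114. URA1, dihydroorotate dehydrogenase of pyrimidine synthesis, had 0.106, 0.229 and 0.145 in sua7-1, against 0.140, 0.00483 and 0.0634 in WT, so that WT replicate 1 fell within the sua7-1 values and WT replicate 2 far under them. ATP1, the alpha subunit of the mitochondrial ATP synthase, had 0.172 and 0.228 in sua7-1 (no value in replicate 2), against 0.0924, 0.0858 and 0.102 in WT. ENO1, an enolase of glycolysis, had 0.0995, 0.204 and 0.103 in sua7-1, against 0.176, 0.0441 and 0.0560 in WT and 0.140 in WT replicate 4, with the strains overlapping. The last 450 nt of ENO1 are 95.8% identical to ENO2, so reads in its upstream window could belong to either gene.

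NNR2 encodes the dehydratase that repairs damaged NADPH, and it was one of the 3 genes with every sua7-1 library under every WT library. It had 0.417, 0.293 and 0.364 in sua7-1, against 0.447, 0.498 and 0.443 in WT. The difference of the means was -0.104 RTI units and the log2 fold change -0.38 ± 0.47 (SE), less than its error. The next gene on its strand, the glycolytic GPM1, starts 532 nt after the NNR2 stop codon. GPM1 was itself measured, with a mean RTI of 0.0423 in sua7-1 and 0.145 in WT.

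In translation, RNA processing and transcription, 5 of 9 genes were called higher with all libraries: TYS1, EFB1, ZPR1, YRA1 and NOP58. The WT values of that fit also chose the genes. TYS1, the tyrosyl-tRNA synthetase, had 0.420, 0.763 and 0.671 in sua7-1, against 0.299, 0.205 and 0.251 in WT. EFB1, the exchange factor that recharges elongation factor eEF1A, had 0.216, 0.400 and 0.282 in sua7-1, against 0.0832, 0.0632 and 0.0571 in WT. Neither gene overlapped between the strains, and TYS1 was the higher of the pair in every library. EFB1 was called against each WT library left out of the choice, at log2 fold changes of 1.78, 2.16 and 2.31 over WT replicates 1, 2 and 3 and limma adjusted p of 0.0382, 0.0199 and 0.0272. ZPR1, a zinc finger protein that helps eEF1A fold, had 0.231, 0.224 and 0.194 in sua7-1, against 0.0512 and 0.0980 in WT (no value in replicate 1). YRA1, an adaptor of mRNA export, had 0.135, 0.204 and 0.152 in sua7-1, against 0.0591 and 0.0213 in WT (no value in replicate 2). Its lowest sua7-1 library lay above both WT values. NOP58, a core protein of the box C/D snoRNPs, had 0.106, 0.223 and 0.146 in sua7-1, against 0.0387, 0.0351 and 0.0899 in WT. Each of these 3 was apart between the strains, while YRA1 and NOP58 were each at 0.04 or more in 1 WT library only, YRA1 in replicate 1 and NOP58 in replicate 3.

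Of the other genes of this kind none was called. TYE7, a transcription factor of glycolytic genes, had 0.228, 0.270 and 0.294 in sua7-1, against 0.242, 0.216 and 0.259 in WT, close to equal in both strains. OLA1, an ATPase tied to translation, had 0.132, 0.0688 and 0.0631 in sua7-1, against 0.0833, 0.176 and 0.0345 in WT. PUB1, a poly(A) RNA-binding protein, had 0.0725, 0.143 and 0.0765 in sua7-1, against 0.115, 0.0588 and 0.0714 in WT. The strains overlapped in all 3 of these genes. MBF1, a coactivator that links the activator Gcn4 to the TATA-binding protein, went the other way with 0.0849, 0.0362 and 0.0720 in sua7-1, against 0.184, 0.103 and 0.152 in WT. Every sua7-1 library of MBF1 lay under every WT library, at a log2 fold change of -1.21 ± 0.53 (SE), which was not called with all libraries and was called lower without sua7-1 replicate 2.

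Among genes of protein folding and degradation, SBA1, a co-chaperone of Hsp90, had 0.151, 0.660 and 0.205 in sua7-1, against 0.0940, 0.0293 and 0.0211 in WT. Its strains were apart, but it reached 0.04 in WT replicate 1 only. RPN2, a large subunit of the proteasome's regulatory particle, had 0.130, 0.263 and 0.201 in sua7-1, against 0.0615, 0.0333 and 0.0397 in WT, with the strains apart. Over WT replicates 2 and 3, each left out of the choice, the log2 fold changes of RPN2 were 2.44 and 2.20. RPN2 was not chosen without WT replicate 1, its highest WT library, so it was compared in this way only with its lower ones. SKP1, the adaptor of SCF ubiquitin ligases, had 0.410 and 0.303 in sua7-1 (no value in replicate 2), against 0.196, 0.166 and 0.131 in WT. CCS1, the copper chaperone of superoxide dismutase, had 0.240, 0.293 and 0.218 in sua7-1, against 0.282, 0.190 and 0.198 in WT, and its strains overlapped.

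PRE6, an alpha subunit of the 20S proteasome, had the highest WT index of the 42 genes. It read 0.842, 0.637 and 0.854 in sua7-1, against 1.11, 1.33 and 1.24 in WT. WT replicates 1 to 3 were all above 1, more signal after the 3' end than before it, and all 3 sua7-1 libraries lay under 1. The strain means were 0.778 ± 0.122 in sua7-1 and 1.22 ± 0.108 in WT (SD, n = 3 each), and the log2 fold change was -0.66 ± 0.47 (SE). The limit of 1 in RTI was passed by no other of the 42 genes in WT, and in sua7-1 by GLY1 in replicate 3, by PHO86 in replicates 3 and 4 and by MRH1 in replicate 4.

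The 3 largest differences in RTI units were in genes of the secretory pathway and the cell surface, PHO86, MRH1 and TOH1. PHO86, an ER protein needed to send the phosphate transporter Pho84 to the plasma membrane, had 0.943, 2.57 and 1.21 in sua7-1, against 0.167, 0.103 and 0.116 in WT. The mean of sua7-1 was 12.3 times that of WT, and the lowest sua7-1 library lay far above the highest WT library. Over WT replicates 1, 2 and 3, each left out of the choice, its log2 fold changes were 3.09 ± 0.73, 3.78 ± 0.80 and 3.61 ± 0.85 (SE), with limma adjusted p of 0.000987, 0.00140 and 0.00766. Its nearest gene on the same strand starts 2821 nt after the stop codon.

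MRH1, a plasma membrane protein, had 0.674, 0.870 and 1.16 in sua7-1, against 0.185, 0.0283 and 0.0910 in WT, and WT replicate 4 read 0.243. The 4 WT libraries of MRH1 spread over more than the sua7-1 libraries did on a ratio scale, yet stayed under all of them. Against the WT libraries left out of the choice, replicates 1, 2 and 3, its log2 fold changes were 2.24, 4.86 and 3.25 with limma adjusted p of 0.0184, 0.000372 and 0.0226. TOH1, a cell surface protein with a lipid anchor, had 0.333, 0.688 and 0.592 in sua7-1, against 0.0679 and 0.0627 in WT (no value in replicate 1). Its strains were far apart, with log2 fold changes of 2.88 and 3.00 over WT replicates 2 and 3 left out of the choice (limma adjusted p of 0.00627 and 0.0132).

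Of 4 genes that modify, carry or target secreted proteins, STT3 alone was called, in the fit whose WT values also chose the genes. STT3, the catalytic subunit of the oligosaccharyltransferase, had 0.173, 0.324 and 0.248 in sua7-1, against 0.116, 0.0913 and 0.106 in WT. PMT2, a protein O-mannosyltransferase, had 0.0929, 0.142 and 0.0778 in sua7-1, against 0.0479, 0.0473 and 0.0568 in WT. SEC23, a coat protein of vesicles leaving the ER, had 0.0589, 0.0585 and 0.0866 in sua7-1, against 0.0802, 0.0417 and 0.0806 in WT. The strains were apart in STT3 and PMT2 and overlapped in SEC23, whose means were 0.0680 in sua7-1 and 0.0675 in WT. SND3, a factor that targets proteins to the ER, had 0.317, 0.201 and 0.226 in sua7-1, against 0.146, 0.232 and 0.265 in WT, again with overlap.

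Transporters and vacuolar proteins were mixed. TAT1, an amino acid transporter, had 0.235, 0.405 and 0.318 in sua7-1, against 0.191, 0.116 and 0.138 in WT, with the strains apart. The next gene on its strand is BAP2, another amino acid transporter, 884 nt after the stop codon, and its mean RTI was 0.0942 in sua7-1 and 0.0355 in WT. HXT3, a low-affinity glucose transporter, had 0.128, 0.194 and 0.143 in sua7-1, against 0.186, 0.0322 and 0.0657 in WT, so that WT replicate 1 lay within the sua7-1 values. The last 450 nt of HXT3 are 90.4% identical to HXT7. VMA6, a subunit of the vacuolar proton pump, had 0.195 and 0.386 in sua7-1 (no value in replicate 3), against 0.112, 0.0931 and 0.134 in WT. SNA3, a cargo protein of the vacuole pathway, had 0.161, 0.0994 and 0.111 in sua7-1, against 0.0909, 0.143 and 0.108 in WT. VMA6 was apart between the strains and SNA3 was not.

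A pair of cell wall enzymes of daughter cells, both glucanases, stood near the lower limit. DSE4 had 0.0726, 0.153 and 0.119 in sua7-1, against 0.0683, 0.0251 and 0.0288 in WT. SCW11 had 0.0698, 0.183 and 0.0880 in sua7-1, against 0.121, 0.00803 and 0.0238 in WT. Each reached 0.04 in WT replicate 1 only, and in SCW11 that library lay inside the sua7-1 range. In DSE4 the lowest sua7-1 library exceeded the highest WT library by a narrow margin.

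The last group holds genes of other or unannotated function. COF1, cofilin, which severs actin filaments, had 0.271, 0.532 and 0.405 in sua7-1, against 0.0975, 0.0811 and 0.0855 in WT. It was apart between the strains and was called against WT replicates 1, 2 and 3 left out of the choice, at log2 fold changes of 1.97, 2.23 and 2.16 and limma adjusted p of 0.0234, 0.0168 and 0.0350. PIN4, a protein of cell cycle progression after DNA damage, had 0.148 and 0.119 in sua7-1 (no value in replicate 2), against 0.179, 0.0971 and 0.119 in WT. YLR342W-A had 0.134, 0.232 and 0.174 in sua7-1, against 0.0755, 0.350 and 0.149 in WT. PIN4 and YLR342W-A overlapped between the strains.

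GSR1 entered the 42 genes through a single value. It had 0.0208, 0.00654 and 0.00800 in sua7-1, against 0.333 and 0 in WT (no value in replicate 1). The WT value of replicate 2 far exceeded every sua7-1 value and that of replicate 3 was listed at 0, so the mean of WT says little about this gene. Against WT replicate 3 left out of the choice, its log2 fold change was 2.64, and GSR1 is among the genes called higher there. That comparison rests on the value listed at 0. GSR1 was called higher in sua7-1 without WT replicate 2, and lower without WT replicate 3 or with zeros taken as missing. YOR309C and YGR137W, for which the annotation used here gave no match, are given by their systematic names. The RTI of YOR309C was 0.143, 0.306 and 0.233 in sua7-1, against 0.198, 0.117 and 0.197 in WT. That of YGR137W was 0.0704, 0.0408 and 0.0936 in sua7-1, against 0.0692, 0.0440 and 0.0238 in WT. Both overlapped between the strains.

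How firm a call was depended on the gene. PHO86, MRH1, COF1, EFB1, TOH1, SBA1, RPN2 and ADO1 were called higher whichever single library was left out. TYS1 and DSE4 lost the call without sua7-1 replicate 3 or 4 or without WT replicate 2 or 3. ZPR1 and NOP58 lost it without sua7-1 replicate 3 or 4 or WT replicate 2, HOM2 and STT3 without sua7-1 replicate 3 or 4, and YRA1 without WT replicate 3. Without WT replicate 1, OLE1, PRS3, TAT1, HXT3, URA1 and SCW11 were called higher as well, and the count was 21 in place of 15. TAT1 and VMA6 were also called higher without sua7-1 replicate 2. The comparison with WT replicates 1, 2 and 3, each left out of the choice, did not bear out every call. TYS1, HOM2 and STT3 were called against none of these libraries. Their log2 fold changes there all lay above 1 and reached 1.54, with an SE of 0.71 to 0.79. ZPR1 and DSE4 were called against WT replicate 2 left out of the choice and not against WT replicate 3.

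What lies downstream of the 42 genes was read from the annotation and was not named in the rule. It is not independent of the choice, because the downstream window of the index can take in signal of a close neighbour. The names left out also held genes with a close neighbour on their strand, such as VTC4, PGA3 and MRP13 at 194, 226 and 308 nt. Of the 40 matched to the R64 annotation, 11 had another gene starting on the same strand within 500 nt of their stop codon (27.5%, 95% exact Clopper-Pearson interval 14.6 to 43.9%), against 28 of all 331 matched genes (8.46%, 5.69 to 12.0%). Within 1000 nt there were 22 of 40 (55%) against 69 of 331 (20.8%). The median distance to the next gene on the same strand was 881.5 nt for the 42 genes and 2291 nt for all. The facing arrangement took a smaller share: a gene on the opposite strand ended within 500 nt in 12 of 40 (30%, 16.6 to 46.5%), against 220 of 331 (66.5%, 61.1 to 71.5%). Over the 239 matched genes that the names in the rule leave in, these shares were 7.11% within 500 nt, 21.8% within 1000 nt and 66.1% for the facing arrangement. The intervals treat genes as independent draws and cover counting error only.

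**Figure D5:**
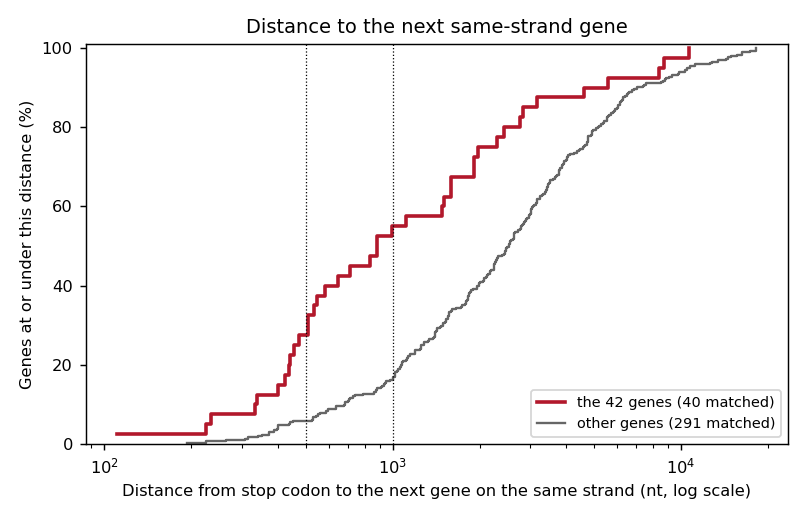
Cumulative share of genes whose next gene on the same strand starts within a given distance of the stop codon (logarithmic axis), for the 42 genes (red) and the other genes (grey). Dotted lines mark 500 and 1000 nt, where the red line reaches 27.5% and 55%.

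The study kept genes with at least 500 nt between the mRNA 3' end and the following same-strand gene, while the distances here begin at the stop codon. The 11 genes under 500 nt were YLR342W-A, followed by GAS2 at 111 nt, STT3 by ALK1 at 225 nt, ADO1 by ECM27 at 235 nt, COF1 by FRE6 at 333 nt, ZPR1 by SLI1 at 339 nt, PMT2 by LTE1 at 400 nt, HOM2 by SAC3 at 423 nt, NOP58 by SNU66 at 438 nt, SNA3 by INO1 at 439 nt, ATP1 by BNA4 at 455 nt and SCW11 by a tRNA gene at 474 nt. In these genes the downstream window runs past the start of the next gene, and signal of that gene cannot be told apart from readthrough in the index. The window is counted from the mRNA end, which lies past the stop codon. It may therefore also reach the next gene in HXT3, SKP1, NNR2, EFB1, TYS1 and PRE6. Those neighbours start at 508, 509, 532, 547, 583 and 644 nt, and whether the window reaches them was not tested. Read the other way, 60.7% of the 28 measured genes with so close a neighbour had a mean WT RTI of 0.04 or more, against 31.7% of 41 with a neighbour at 500 to under 1000 nt and 11.1% of 262 with none within 1000 nt.

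The change in sua7-1 can be set out by the distance to that neighbour, with WT values that chose the genes. The median difference, sua7-1 minus WT, was 0.106 RTI units in the 11 genes under 500 nt, 0.0739 in the 11 at 500 to under 1000 nt and 0.107 in the 18 at 1000 nt or more. By limma 6 of 11, 3 of 11 and 6 of 18 were called higher, where 60.7%, 65.9% and 78.6% of all genes at these distances were. PHO86, MRH1, TOH1, SBA1, RPN2 and YRA1 are those 6 with no gene starting on their strand within 1000 nt.

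Known 3' end elements were looked for after the stop codon. TATATA, the efficiency element of yeast poly(A) sites, was searched on the coding strand within 200 nt of the stop codon and stood there in 20 of 40 genes (50%), against 53.5% of all matched genes. Within 100 nt the shares were 22.5% (10.8 to 38.5%) against 33.2% (28.2 to 38.6%), and within 300 nt 60% against 64.7%. AATAAA, the positioning element, was found in 42.5% against 39.0%, and TTACCCG, the site of the Reb1 protein, on either strand within 500 nt in 1 of 40 against 1.81%. The 200 nt after the stop codon held a median of 33.25% T in the 42 genes and 38% in all. A match is a description of the sequence, not of a site in use. The first TATATA after the stop codon is shown for genes at both ends of the range, 30 nt of the coding strand from the R64 genome with the element in capitals. MRH1, GLY1 and TYS1, with differences as large as 0.80, 0.43 and 0.37 RTI units, held none within 300 nt, and OLE1, with 0.32, none within 200 nt. Of those that held one, PHO86, TOH1, SBA1 and COF1 had the largest differences, and PRE6, NNR2 and MBF1 had every sua7-1 library under WT:
PHO86: tttccatatattTATATAtatgtatacaaa
TOH1: tatactgatacaTATATAgacgtgatttat
SBA1: aactatcttagaTATATAttgtacattgtc
COF1: aaaatgtatatcTATATAtaaaatcgtcat
PRE6: aaacggcgaTATATAttgggcataaaacct
NNR2: tgctaagttacaTATATAtatatatatata
MBF1: gaagtacacacgTATATAttatgattcagg
The windows lie at chrX:193567-193596 (+ strand), chrX:99553-99582 (- strand), chrXI:221124-221153 (+ strand), chrXII:39732-39761 (- strand), chrXV:256102-256131 (+ strand), chrXI:164861-164890 (- strand) and chrXV:877043-877072 (- strand). The element begins 113, 134, 162 and 55 nt after the stop codon in the first 4 genes, and 10, 39 and 170 nt after it in the last 3. In NNR2 it opens a run of repeated TA, and in PRE6 it lies closest to the stop codon among these 7.

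The matched genes lie on the forward strand in 17 cases (42.5%) and on the reverse strand in 23, where 49.2% of all matched genes lie on the forward strand. Their median coding length was 1068 nt, against 999 nt for all matched genes. A near-identical copy of the last 450 nt (85% or more) was found elsewhere in the genome for 2 of 40, ENO1 and HXT3, against 22.7% of all matched genes and 6.28% of the matched genes that the names in the rule leave in.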

How the data were processed

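GRO-seq was done on 3 sua7-1 and 4 WT libraries. The authors trimmed adapters with cutadapt, aligned reads to S288C R64 (aligner: not given in the sources used here), counted reads in both windows without stating the strand, and deposited their ratio, the RTI, for genes with at least 5 values. The table also holds the authors' strain means, a log2 ratio and a p-value, which were not used, and a second block that repeats 166 of its 168 rows from the 337 genes. The genes and lists described here were chosen with earlier results of these data known.

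All 337 genes were fitted with limma 3.58.1 (R 4.3.3, two-sided) on log2(RTI + 0.002) and no covariate besides strain, so that fold changes of low genes are understated, and Benjamini-Hochberg adjustment over all genes. Depth is unknown. Blank values were left out of each gene's fit. Distances, motifs and sequences came from the R64 genome and annotation by systematic name (331 of 337 genes, 40 of 42), with stop codons as the origin, because the authors' mRNA 3' end annotation was not used here. Copies were sought with blastn 2.17.0, and other values computed in Python 3.11.15 with numpy 2.4.6 and scipy 1.17.1. Every one of the 42 genes is named. The rule asked for values in every library for the highest in WT, the largest and smallest changes, the genes lower in sua7-1, those with a blank or 0 and those in WT replicate 4, and the others are given too.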

Additional observations from a re-analysis of the deposited data

Results flagged for a closer look

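ADO1 was singled out in WT because 1 of its 4 libraries lay apart from the others: WT replicate 3 had an RTI of 0.0372, and WT replicates 1, 2 and 4 had 0.0424, 0.0432 and 0.0430. The gap of the lowest library to the next was 0.862 of the whole WT range. All of these lay far under the sua7-1 values of ADO1. Of 7 sets of 4 WT values tested in this way (6 genes and the library medians of the 42 genes), 1 was singled out, and chance does so in about 1 group of 20.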

How the results depend on the processing

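Dividing each library by its median RTI turned the median log2 fold change of the 42 genes to -2.24 (1.10 as reported). It gave 0 genes called higher and 26 lower, 0 with every sua7-1 library above WT, and 0, 1, 0 and 0 called against WT replicates 1, 2, 3 and 4 left out of the choice. This scaling sets the median gene of every library equal, so it removes any rise shared by all genes. The shares of all genes called are not given for this scaling or for the refits below. Counts under them describe the chosen genes and are not read against all genes. With single libraries left out, 9 to 21 genes were called higher and 0 to 1 lower, and the median log2 fold change was 0.92 to 1.28. In 22 to 29 genes every sua7-1 library then lay above every WT library. The fewest calls came without sua7-1 replicate 3 or 4 and the most without WT replicate 1. A pseudocount of 0.01, zeros taken as missing, and limma's trend and robust options each gave 1 gene called lower. Pseudocounts changed the calls against WT replicate 1 to 2 (at 0.0005) and against WT replicate 4 to 3 (at 0.01). A limit of 0.03 in WT chose 58 genes with 28 called higher, and a limit of 0.06 chose 33 with 9. These counts and those of the next sentence use the main fit, where 75.1% of all genes were called higher. Chosen after seeing the data, 29 genes at 0.04 or more in each WT library with a value had 8 called higher, and 18 genes with no same-strand gene within 1000 nt had 6 called and 8 with the strains apart; these are fewer genes. The share with a same-strand gene within 1000 nt was 55%, and the share with TATATA within 100 nt was 22.5%, against 33.2% of all matched genes.

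The replicate numbers did not pair the libraries: deviations of sua7-1 and WT libraries of the same number correlated at 0.134, -0.0226 and -0.0254 across genes. With the replicate block 18 of the 42 genes were called higher and 0 lower, and the median log2 fold change was 1.29. The other alternatives kept the direction and stayed within 1.5 times of each count. The limits are the unknown depth, the 3 sua7-1 libraries, and WT replicate 4 with few genes.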
